A study of Homo sapiens with 6 samples.

Results

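The genes described here are 7 components of the TGF-beta pathway: the ligands TGFB1 and TGFB2, the receptors TGFBR1 and TGFBR2, the signal transducers SMAD3 and SMAD7, and the secreted target TGFBI. They were taken by name, and all 7 were present among 15945 genes of an A375 count table and 15429 genes of a PC9 count table. Both tables come from single-cell RNA sequencing of cancer cell lines grown under increasing doses of a kinase inhibitor, with unique molecular identifiers (UMIs) counted per gene and cell. A375 is a human melanoma line with the BRAF-V600E mutation. It was sampled untreated and after adaptation to 30, 60, 125, 250 or 500 nM or 1, 2 or 4 µM of dabrafenib, a BRAF inhibitor. PC9 is a human lung cancer line with mutant EGFR. It was sampled untreated, after adaptation to 8, 16, 32, 75, 150, 300 or 600 nM or 1.2 µM of osimertinib, an EGFR inhibitor, and as persisters, the cells left after 9 days of 1.2 µM given at once. Adapted populations were raised by dose escalation, and every population was represented by 1 culture. The cultures of a line were tagged and pooled, and the A375 pool had 2 runs that cell names do not tell apart. With 1 culture per population, intervals given in parentheses are 95% intervals for counting error only, and no p-value can be given.

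TGF-beta ligands are secreted in a latent complex and, once released, bind the receptor TGFBR2, which recruits and activates TGFBR1. The activated receptor phosphorylates SMAD2 and SMAD3, which enter the nucleus with SMAD4 and change transcription of matrix, cytoskeletal and cell cycle genes. SMAD7 is induced by the same signal and blocks the receptor, and TGFBI is a secreted matrix protein named for its induction by TGF-beta. In epithelial and melanoma cells the pathway is known for slowing division and for a shift towards a mesenchymal, matrix-producing state.

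The tables held 8505 A375 cells with 87053189 UMIs and 11258 PC9 cells with 77210300 UMIs. Populations held 379 to 2011 cells and 2938641 to 21976644 UMIs in A375, and 823 to 1410 cells and 4908228 to 10552237 UMIs in PC9. The median cell held 7337 to 9804 UMIs in A375 populations and 5776 to 7968 in PC9 populations. Levels are UMIs per 1000000 UMIs of the population (CPM). The 2 tables shared 27 cell barcodes, and no barcode was in more than 1 population of a table. The median mitochondrial share was 5.22% in untreated A375 cells and 7.67% at 4 µM. Of the melanocyte and neural crest markers in A375, SOX10, MITF and S100B were above 10 CPM in all 9 populations, while PMEL, MLANA and TYR were at 4.42 CPM or less. SOX10 was at 208 CPM in untreated cells and 38.2 CPM at 4 µM, and S100B at 164 and 49.9 CPM. MITF was lowest in untreated cells at 73.4 CPM, highest at 30 nM at 207 CPM, and at 91.1 CPM at 4 µM. All 6 epithelial markers in the PC9 table were above 10 CPM in each of its 10 populations, with a summed level of 6260 to 7590 CPM. SFTPB of the same list had no row in either table. In A375 this list summed to 481 CPM in untreated cells and 891 CPM at 4 µM, of which KRT18 made up 435 and 788 CPM. MITF was also found in PC9, at 33.5 CPM in untreated cells and 83.5 CPM in persisters.

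The upstream sequences of TGFB2, TGFBR2 and TGFBI are shown, since these 3 members had the widest ranges between PC9 populations and differed from untreated cells in different directions. They are from RefSeq (GRCh38.p14), + strand, and end before the earliest start of the gene in RefSeq or GENCODE. Capitals mark matches on either strand to 4 motifs: GTCTAGAC (the palindromic SMAD element), CAGAC (the short SMAD element), TGACTCA (AP-1) and CATTCC (TEAD). All 7 members had an entry in the promoter table.
TGFB2, chr1:218345086-218345335: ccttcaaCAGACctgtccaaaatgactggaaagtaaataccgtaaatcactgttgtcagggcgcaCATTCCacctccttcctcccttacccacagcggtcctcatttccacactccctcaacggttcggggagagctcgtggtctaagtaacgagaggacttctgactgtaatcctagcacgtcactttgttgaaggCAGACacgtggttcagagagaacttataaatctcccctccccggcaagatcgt
TGFBI, chr5:136028738-136028894: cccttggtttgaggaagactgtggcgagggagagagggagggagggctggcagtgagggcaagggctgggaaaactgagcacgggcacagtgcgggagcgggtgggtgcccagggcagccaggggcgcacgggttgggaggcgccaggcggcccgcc
TGFBR2, chr3:30606106-30606355: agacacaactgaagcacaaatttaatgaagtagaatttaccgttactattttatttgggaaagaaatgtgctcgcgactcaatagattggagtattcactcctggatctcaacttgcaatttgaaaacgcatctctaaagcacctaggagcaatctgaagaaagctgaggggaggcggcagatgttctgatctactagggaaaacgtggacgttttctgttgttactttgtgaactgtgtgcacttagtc
The TGFB2 stretch of 250 bases held CAGAC at 2 places, 243 and 53 bases before the RefSeq start, and CATTCC at 1 place, 185 bases before it. The TGFBI stretch of 157 bases and the TGFBR2 stretch of 250 bases held none of the 4. Of 35116 promoter windows cut to 250 bases, 38.0% held CAGAC, 11.9% CATTCC, 4.20% TGACTCA and 0.182% GTCTAGAC. Of the same windows cut to 157 bases, the shares were 27.0%, 7.77%, 2.35% and 0.122%. The TGFB2 start in RefSeq lies 899 bases upstream of the gene start in GENCODE v29. A match describes the letters only.

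TGFB2 was the member with the widest range in both lines. It encodes a secreted TGF-beta ligand (chr1:218346235-218444619, + strand, GRCh38). In A375 its level was 7.46 CPM in untreated cells and 19.3, 14.1, 18.7, 10.97, 44.0, 54.7, 65.7 and 78.0 CPM from 30 nM to 4 µM. The untreated level was the lowest and its interval (6.36 to 8.70) lay below those of all 8 adapted populations. The doses from 30 to 250 nM lay between 10.97 and 19.3 CPM, and the doses from 500 nM up lay at 44.0 CPM or more. Ordered by level, 5 of 8 neighbouring pairs of populations had intervals that did not overlap.

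In PC9, TGFB2 was at 52.1 CPM in untreated cells and at 215, 248, 262, 305, 317, 334, 314 and 327 CPM from 8 nM to 1.2 µM. Persisters held 336 CPM. The largest step was the one from untreated cells to 8 nM, and the adapted populations differed among themselves by 1.55-fold. Of 9 neighbouring pairs in order of level, 3 were apart. Persisters after 9 days and cells adapted to 1.2 µM were at about the same level, with a ratio of 1.03 (0.966 to 1.10). The gene TGFB2-OT1 lies within TGFB2 on the same strand, and it had no row in either table.

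TGFB1 encodes the best known ligand of the family (chr19:41301587-41353911, - strand). It lay between 34.9 CPM at 2 µM and 63.7 CPM at 30 nM in A375, against 44.2 CPM in untreated cells. In PC9 it lay between 38.1 CPM in untreated cells and 50.3 CPM at 600 nM. Only 1 of 8 neighbouring pairs in A375 and 0 of 9 in PC9 were apart, and no comparison reached 2-fold. The intervals of the lowest and highest level did not overlap in either line. The genes TMEM91, CCDC97 and HNRNPUL1 overlap TGFB1 on the other strand, and how the counting used strand is not given in the sources used here.

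**Figure D1:**
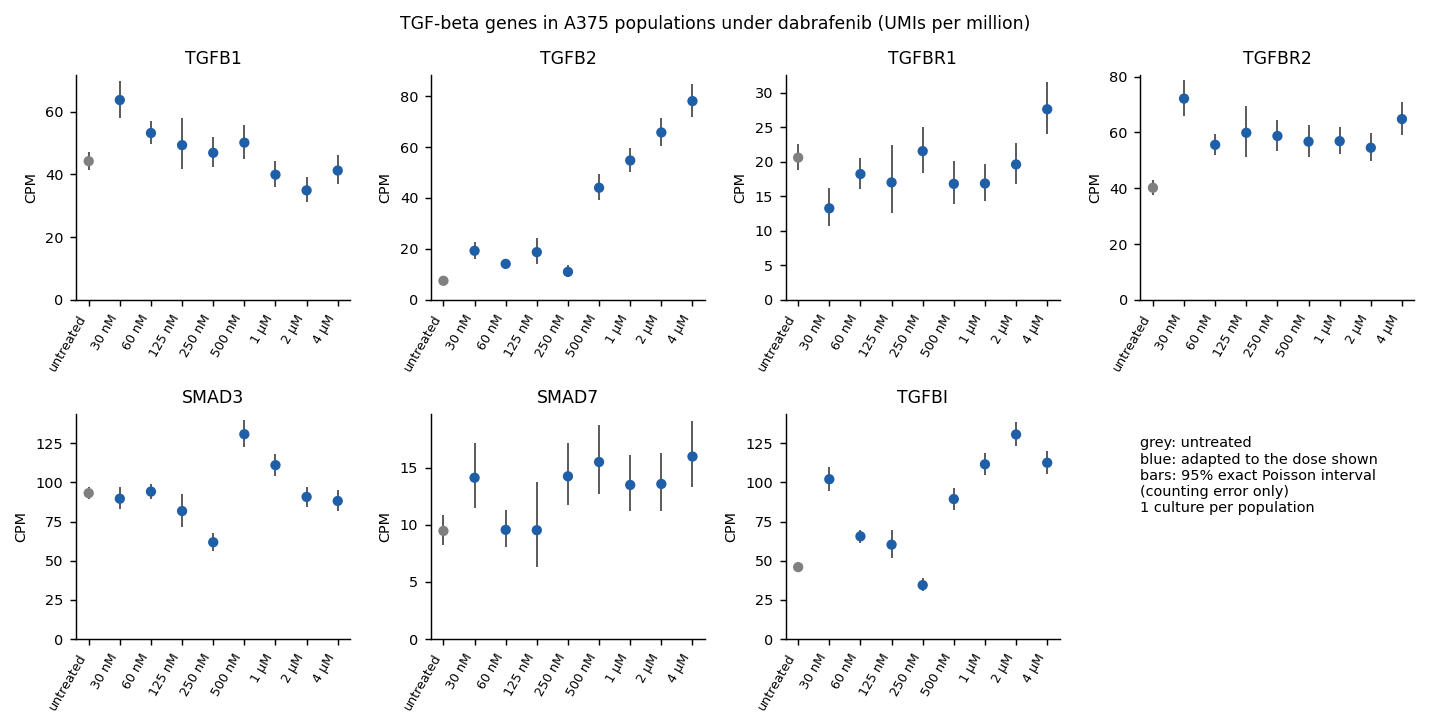
Level of each member in the 9 A375 populations, in CPM on a linear axis from 0, with 1 point per population and bars for the 95% counting interval. TGFB2 is lowest in untreated cells (7.46 CPM) and highest at 4 µM (78.0 CPM), TGFBI is lowest at 250 nM (34.4 CPM), and all 8 adapted populations lie above untreated cells in TGFBR2.

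TGFBR2 lay above untreated cells at all 8 A375 doses and below them at all 8 PC9 doses, although at 16 nM osimertinib the intervals overlapped (46.3 to 55.8 against 53.8 to 63.1 CPM). Among cells with an authors' cluster, 16 nM lay above untreated cells with a log2 ratio of 0.12, and 7 of 8 PC9 doses lay below. The gene encodes the ligand-binding receptor kinase (chr3:30606502-30694142, + strand). In A375 it was at 40.2 CPM in untreated cells and at 72.2, 55.6, 59.9, 58.7, 56.7, 56.9, 54.5 and 64.8 CPM from 30 nM to 4 µM. The untreated interval (37.6 to 42.9) lay below that of each adapted population, but no ratio reached 2-fold, and 30 nM came nearest at 1.80-fold (1.61 to 2.01). As a mean over cells the log2 ratio at 30 nM was 1.16 in place of 0.83, past 2-fold. In PC9 the level was 58.3 CPM in untreated cells and 47.4, 50.9, 36.0, 30.2, 27.1, 27.7, 31.5 and 23.7 CPM from 8 nM to 1.2 µM. Persisters stood at 53.8 CPM, above every population adapted to 32 nM or more and within counting error of untreated cells at a ratio of 0.923 (0.796 to 1.07). The 1.2 µM level was 2.46-fold lower than untreated (2.08 to 2.93), and persisters were 2.27-fold above the cells adapted to 1.2 µM (1.87 to 2.77). With only the cells that the authors assigned to clusters, the log2 ratio of that last comparison was 0.73 in place of 1.15, which is under 2-fold.

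TGFBR1 encodes the kinase that TGFBR2 activates (chr9:99104038-99154192, + strand). In A375 it ranged from 13.3 CPM at 30 nM (10.7 to 16.2) to 27.6 CPM at 4 µM (24.0 to 31.6). It was at 20.6 CPM in untreated cells, and the 8 neighbouring pairs in order of level all overlapped. In PC9 it was lowest in untreated cells at 16.7 CPM and lay between 22.4 and 31.4 CPM in the adapted populations, with 25.5 CPM in persisters. The highest PC9 value, at 16 nM, was 1.88 times the untreated one.

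SMAD3, the transcription factor that carries the signal to the nucleus (chr15:67063763-67195195, + strand), had its lowest A375 level at 250 nM and its highest at 500 nM. The A375 levels were 93.1 CPM untreated and 89.6, 94.1, 81.7, 61.8, 131, 111, 90.7 and 88.1 CPM from 30 nM to 4 µM. The 2 extremes were thus neighbouring doses, and 500 nM was 2.12-fold above 250 nM (1.89 to 2.37). Cells at 4 µM and untreated cells differed by less than counting error, with a ratio of 0.946 (0.866 to 1.03). In PC9 the levels were 124 CPM untreated and 112, 116, 125, 130, 136, 134, 136 and 153 CPM from 8 nM to 1.2 µM, and 240 CPM in persisters. Persisters were the only PC9 population set apart from its neighbour in order of level, at 1.93-fold over untreated cells (1.78 to 2.09) and 1.57-fold over 1.2 µM (1.44 to 1.70). Untreated PC9 cells in the authors' cluster 0, 145 of 1315 cells, had 204 CPM of SMAD3, and among all cells given a cluster the log2 ratio of persisters over untreated was 0.40 in place of 0.94. All 8 adapted PC9 populations lay below untreated cells in SMAD3 there, against 2 of 8 over all cells. The authors' clusters cover only the cells of their tables labelled g1. These hold 12.9% of untreated PC9 cells and 81.8% of persisters, so the change of cells differs between the populations compared.

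SMAD7, the inhibitory SMAD (chr18:48919853-48952052, - strand), had the fewest UMIs of the members when all populations of a line were summed. In A375 its level lay between 9.46 CPM in untreated cells (8.22 to 10.8) and 16.0 CPM at 4 µM (13.3 to 19.1). It had 0 of 8 neighbouring pairs apart. In PC9 it was lowest in untreated cells at 6.35 CPM, between 9.33 and 12.7 CPM in adapted cells, and 14.1 CPM in persisters. The persister value rests on 69 UMIs and was 2.21-fold above the untreated one (1.56 to 3.15). Its log2 ratio was 1.03, and it was under 1 under 4 alternative settings, at 0.40 in the cells that the authors assigned to clusters, 0.75 with a pseudocount of 5 CPM, 0.90 without cells over 2 times the median UMIs and 0.99 with trimmed mean scaling.

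**Figure D2:**
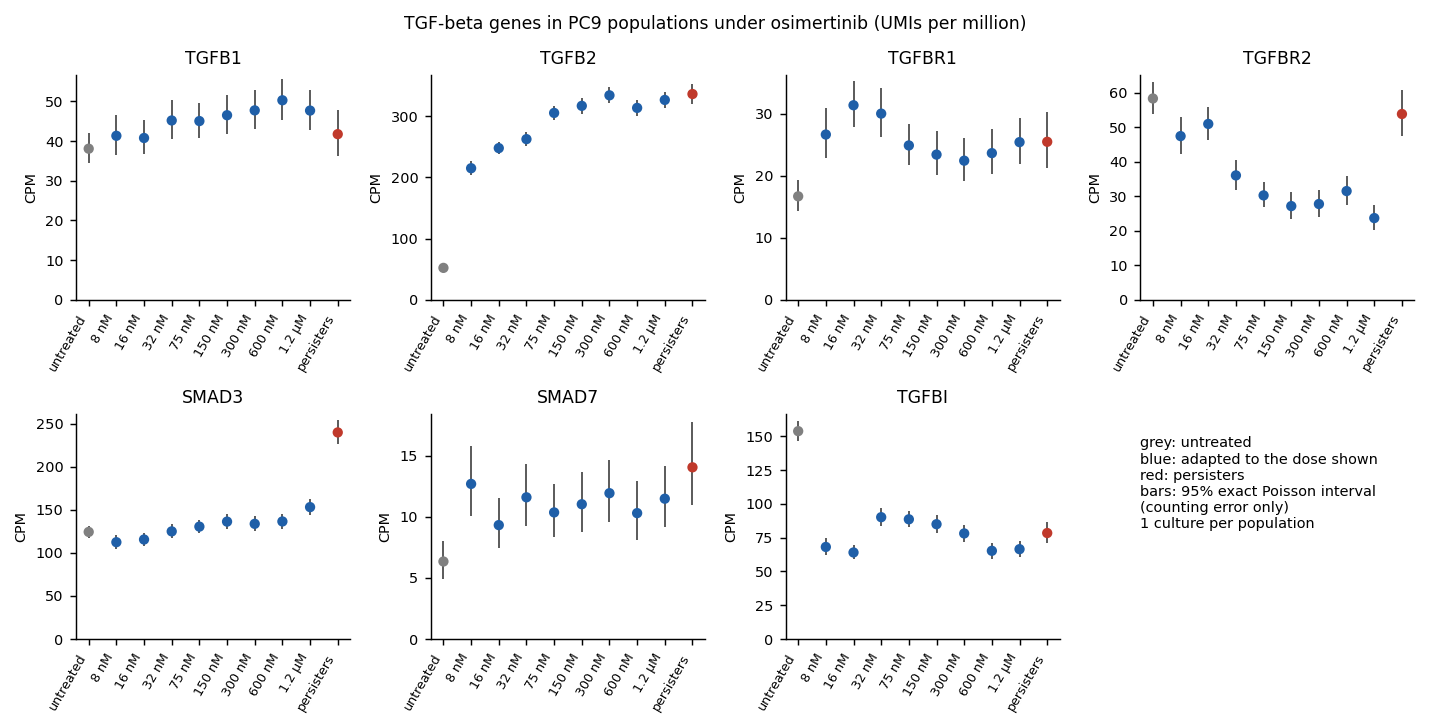
Level of each member in the 10 PC9 populations, in CPM on a linear axis from 0, with 1 point per population and bars for the 95% counting interval. TGFB2 is at 52.1 CPM in untreated cells and at 215 CPM or more elsewhere, TGFBI is highest in untreated cells (154 CPM), TGFBR2 of persisters (53.8 CPM) lies near untreated cells, and SMAD3 is highest in persisters (240 CPM).

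TGFBI, the secreted matrix protein (chr5:136028895-136063818, + strand), was higher than in untreated cells at most A375 doses and lower than in untreated cells in every drug-exposed PC9 population. The A375 levels were 45.9 CPM untreated and 102, 65.5, 60.2, 34.4, 89.3, 111, 131 and 112 CPM from 30 nM to 4 µM. The dose of 250 nM was the only one below the untreated level, and 4 of 8 neighbouring pairs in order of level were apart. The PC9 levels were 154 CPM untreated, then 68.1, 64.1, 90.2, 88.6, 85.0, 78.1, 65.3 and 66.5 CPM from 8 nM to 1.2 µM, and 78.4 CPM in persisters. Untreated PC9 cells were the only population apart from the next in order, and the adapted ones differed among themselves by 1.41-fold.

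The 7 comparisons ran over all measured genes, those reaching 10 CPM and 20 UMIs in whichever population was higher, and a gene was counted at 2-fold or more on the scale of log2(CPM + 1). At 30 nM dabrafenib against untreated A375 cells, TGFB2 was 2.58-fold higher (2.04 to 3.26) and TGFBI 2.22-fold higher (2.01 to 2.45), so 2 of 7 members were higher and 0 lower. Of 9882 genes, 4.03% were higher and 4.97% lower by that measure. With a pseudocount of 5 CPM the log2 ratio of TGFB2 was 0.96, under 2-fold. At 4 µM, TGFB2 was 10.5-fold higher (8.78 to 12.5) and TGFBI 2.45-fold higher (2.23 to 2.69), with 5.59% of all genes higher and 8.89% lower. The median log2 ratio of the 7 members was 0.68 and that of all genes -0.17. Trimmed mean scaling moved the all-gene median by 0.10 and left both members higher.

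The step from 250 to 500 nM set 3 members apart, all higher: TGFB2 by 4.01-fold (3.15 to 5.15), TGFBI by 2.60-fold (2.25 to 3.005) and SMAD3 by 2.12-fold. In that step 4.58% of all genes were higher and 4.58% lower. The other 4 members were under 2-fold, with TGFBR1 the farthest apart at 1.28-fold lower.

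In PC9 at 8 nM osimertinib, TGFB2 was 4.12-fold higher (3.73 to 4.56) and TGFBI 2.26-fold lower (2.03 to 2.51), where 3.15% of all genes were higher and 1.77% lower. Among cells with an authors' cluster the TGFBI log2 ratio was -0.76, under 2-fold. At 1.2 µM, TGFB2 was 6.27-fold higher (5.71 to 6.89), TGFBI 2.31-fold lower (2.09 to 2.56) and TGFBR2 2.46-fold lower, with 6% of all genes higher and 3.86% lower. In persisters against untreated cells, TGFB2 was 6.45-fold higher (5.85 to 7.12) and SMAD7 2.21-fold higher, with 10.6% of all genes higher and 9.63% lower. TGFBI was 1.96-fold lower there (1.75 to 2.20), just under the threshold at a log2 ratio of -0.96, and it was past it with trimmed mean scaling (-1.02), as a mean over cells (-1.09) and without cells over 2 times the median UMIs (-1.01). In persisters against cells adapted to the same dose, TGFBR2 was the only member past 2-fold, where 4.03% of all genes were higher and 4.26% lower. The comparisons with untreated cells share that 1 culture within a line.

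**Figure D3:**
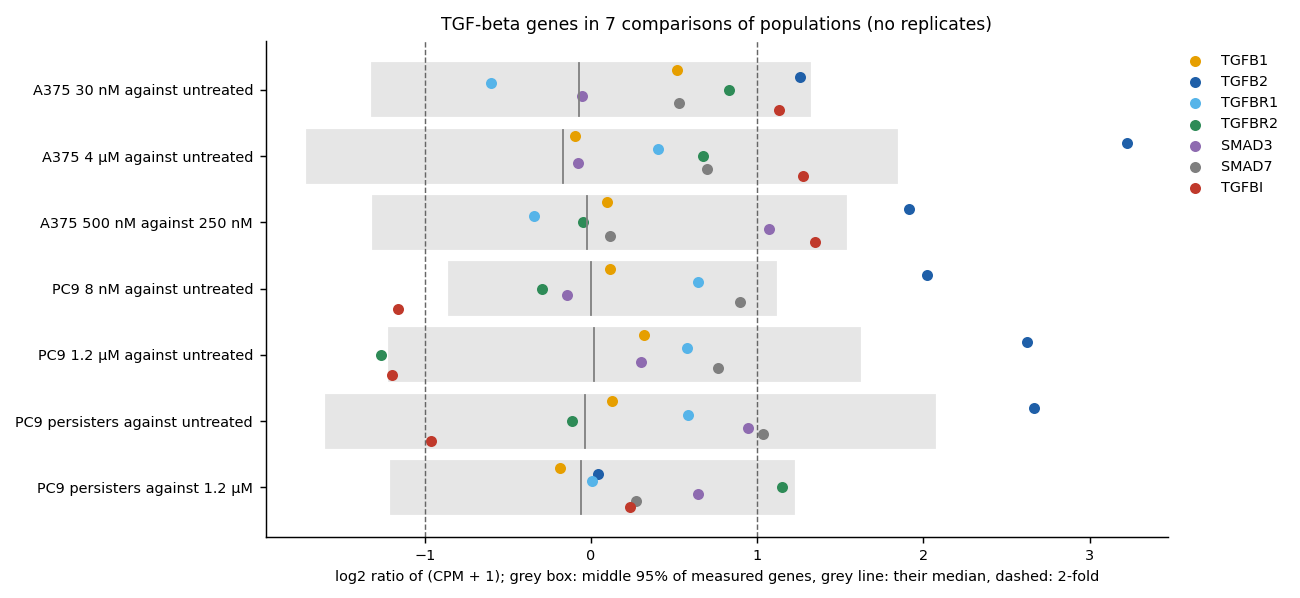
Log2 ratios of CPM + 1 for the 7 members (coloured points) in 7 comparisons (rows), with the middle 95% of all measured genes as a grey box, their median as a grey line and 2-fold as dashed lines. TGFB2 lies at 3.22 for 4 µM and at 2.67 for persisters against untreated cells, and at 0.04 between persisters and cells adapted to 1.2 µM.

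Markers of fibroblasts, which express many TGF-beta targets, were higher in sum at every A375 dose than in untreated cells, but not in the order of TGFB2. The summed level over 6 genes was 18.3 CPM in untreated cells, 126 CPM at 30 nM, 50.9, 49.7 and 24.1 CPM at 60, 125 and 250 nM, and 50.4, 56.5, 75.2 and 110 CPM from 500 nM to 4 µM. The sum was highest at 30 nM, where TGFB2 was at 19.3 CPM, and about equal at 60 and 500 nM, where TGFB2 was at 14.1 and 44.0 CPM. LUM made up most of it at 30 nM with 75.7 CPM, DCN was lower at 1 and 2 µM (0.761 and 1.25 CPM) than in untreated cells (1.91 CPM), and 4 of 6 markers reached 10 CPM at 4 µM. In A375, immune markers lay at 32.5 CPM or less and endothelial markers at 6.37 CPM or less. In PC9 the 3 fibroblast markers with a row summed to 4.83 CPM untreated and at most 12.03 CPM, and PDGFRB was at 0 in untreated cells and at 8 nM. No erythroid marker had a row in either table. The part of these markers in the TGFB2 and TGFBI levels was not tested.

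Detection in single cells was compared after thinning every cell to 4000 UMIs and leaving out cells with fewer, 2.98% to 15.8% of an A375 population and 6.08% to 21.3% of a PC9 population. A UMI of TGFB2 was found in 2.10% of thinned untreated A375 cells (1.51 to 2.84) and in 6.97%, 4.43%, 5.96% and 3.44% from 30 to 250 nM. From 500 nM to 4 µM the share was 13.5%, 17.4%, 20.6% and 24.0% (20.7 to 27.5). Without thinning the share was 6.07% in untreated cells and 46.8% at 4 µM. In PC9 the thinned share was 17.0% in untreated cells (14.9 to 19.2), 50.6% at 8 nM, 66.0% at 1.2 µM (62.9 to 68.96) and 61.3% in persisters. The unthinned PC9 shares were 29.1%, 62.0%, 77.1% and 63.7%. Both the share of cells and the UMIs per positive cell were higher: thinned PC9 cells with the gene held on average 1.22 UMIs untreated, 1.99 at 1.2 µM and 2.22 in persisters. Without thinning, the 10% of untreated PC9 cells with the most TGFB2 held 54.4% of its UMIs, and those at 1.2 µM held 32.2%. This measure is tied to the number of cells with a UMI. For SMAD7, found in 4.87% and 7.65% of those cells, it was 100% in both. It therefore cannot tell a wider spread over cells from a higher level.

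TGFBI was found in 16.1% of thinned untreated A375 cells (14.5 to 17.9), in 12.6% at 250 nM and in 37.3% at 2 µM (33.9 to 40.8), against 33.2%, 22.8% and 62.8% without thinning. In PC9 the thinned share was 43.0% in untreated cells (40.2 to 45.8), 24.4% at 8 nM and 25.2% in persisters, and 63.4%, 32.7% and 30.1% unthinned. SMAD3 was found in 55.2% of thinned persisters (51.3 to 59.1), 42.8% of cells at 1.2 µM and 36.8% of untreated cells. TGFBR2 was found in 20.6% of thinned untreated PC9 cells (18.4 to 23.0), 9.82% at 1.2 µM (8.02 to 11.9) and 19.3% of persisters (16.3 to 22.5). Unthinned, SMAD3 shares were 65.5%, 57.5% and 55.8%, and TGFBR2 shares 34.4%, 14.7% and 24.8%. The pools held no cell type known to lack these genes. All populations of a line were pooled, and the part that free RNA in the pool had in these shares was not tested.

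**Figure D4:**
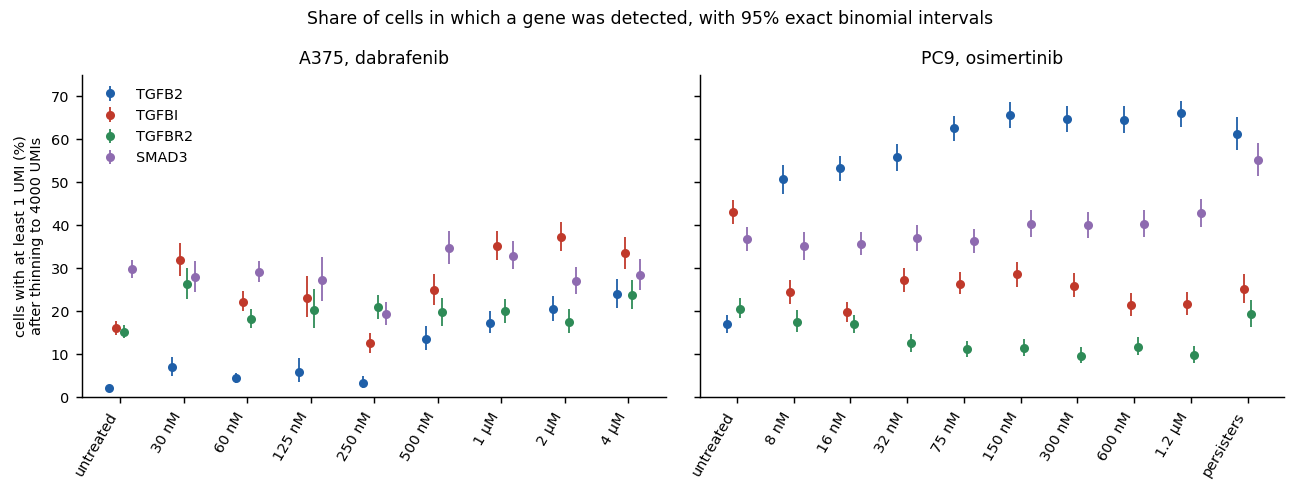
Share of cells with at least 1 UMI of TGFB2, TGFBI, TGFBR2 or SMAD3 after thinning to 4000 UMIs, by population of A375 (left) and PC9 (right), with 95% exact binomial intervals. TGFB2 goes from 2.10% to 24.0% in A375 and from 17.0% to 66.0% in PC9 at the top dose, TGFBI in PC9 is highest in untreated cells (43.0%), and SMAD3 is highest in persisters (55.2%).

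The authors' cell tables assign part of the cells to clusters, 8 in A375 and 5 in PC9, and within a dose the A375 clusters differed in TGFB2. At 60 nM, TGFB2 was at 4.16 CPM in the 409 cells of cluster 1 (2.43 to 6.67), 22.6 CPM in the 260 cells of cluster 3 (15.9 to 31.3) and 54.9 CPM in the 126 cells of cluster 4 (41.4 to 71.2). TGFBI in the same cells was at 47.0, 104 and 124 CPM. At 500 nM, cluster 2 held 6.30 CPM of TGFB2 in 107 cells (2.05 to 14.7), against 58.0 CPM in the 177 cells of cluster 6 (47.3 to 70.5) and 36.0 CPM in the 116 cells of cluster 7 (25.2 to 49.8). At 250 nM, where most listed cells were in cluster 2, its 574 cells held 6.36 CPM. At 4 µM the order was 146 CPM in the 56 cells of cluster 5 (117 to 181), 97.9 CPM in cluster 6 and 73.9 CPM in cluster 7, and TGFBI was at 68.0, 123 and 124 CPM. Cluster 5 was thus the highest in TGFB2 and the lowest in TGFBI of these. Median UMIs per cell at 4 µM were 10134, 9671 and 9107 in clusters 5, 6 and 7, and at 60 nM 9442, 4770 and 7766 in clusters 1, 3 and 4.

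Within a cluster, TGFB2 differed between doses in some clusters and not detectably in others. In cluster 6, TGFB2 was at 58.0, 72.8, 88.9 and 97.9 CPM at 500 nM, 1, 2 and 4 µM, and in cluster 7 at 36.0, 43.3, 60.4 and 73.9 CPM. The intervals of 500 nM and 4 µM did not overlap in either cluster. In cluster 1 it was at 4.16, 2.57 and 5.70 CPM at 60, 125 and 250 nM, and in cluster 2 at 11.9, 9.06, 6.36 and 6.30 CPM from 60 to 500 nM, with overlapping intervals in both. Cluster 1 held 0 UMIs of TGFB2 in its 69 untreated cells, which allows up to 4.04 CPM. The clusters were made from these same cells, so differences between them are a description.

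**Figure D5:**
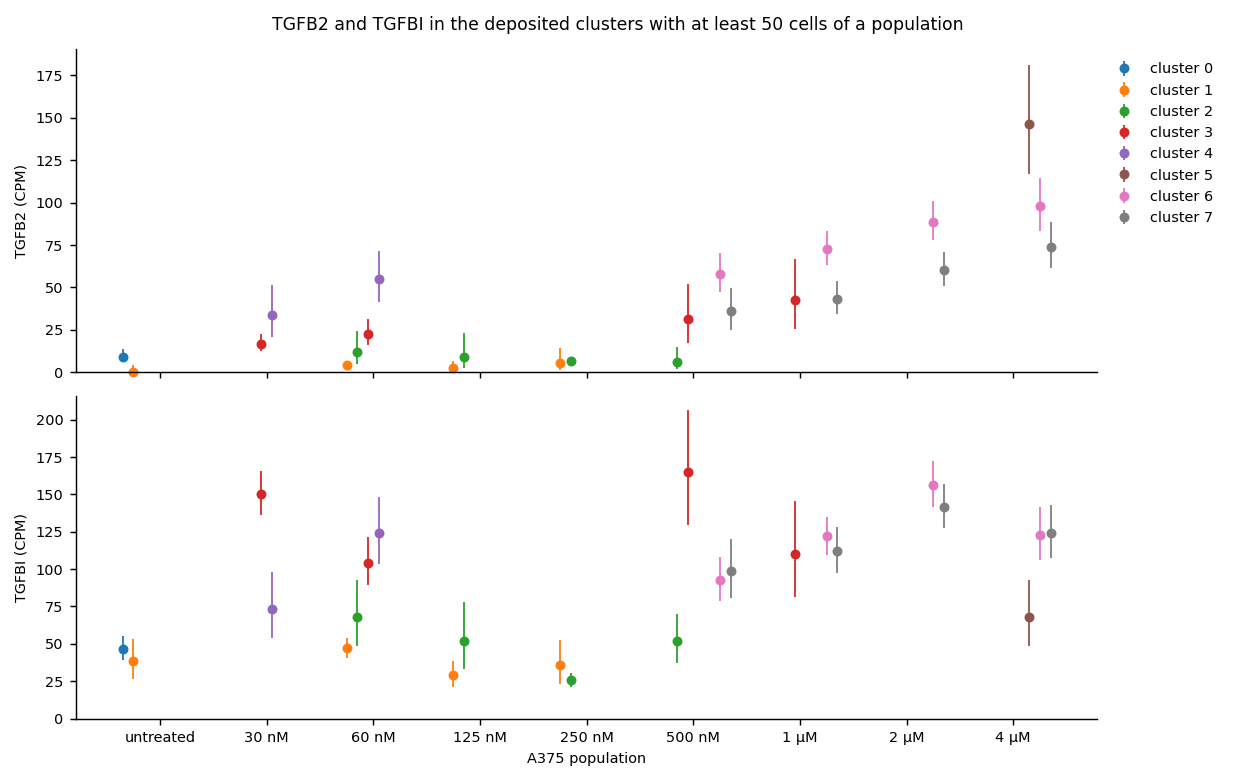
TGFB2 (top) and TGFBI (bottom) in CPM for each authors' cluster with at least 50 cells of an A375 population, by population, with 95% counting intervals. At 60 and 500 nM, TGFB2 ranges from 4.16 to 54.9 CPM and from 6.30 to 58.0 CPM between clusters, and at 4 µM cluster 5 has the highest TGFB2 (146 CPM) and the lowest TGFBI (68.0 CPM).

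In PC9, clusters 3 and 4 differed in TGFBI at the doses from 32 nM up. At 600 nM, cluster 3 held 83.5 CPM of TGFBI in 173 cells (67.0 to 103) and cluster 4 held 29.4 CPM in 232 cells (20.8 to 40.3). TGFB2 in these clusters was at 371 and 225 CPM at 600 nM but 332 and 324 CPM at 300 nM, and its intervals overlapped at 150 nM (272 to 340 and 228 to 304 CPM). Cluster 3 was the higher in TGFB2 at each dose from 32 nM to 1.2 µM. At 1.2 µM the intervals were apart, with 340 CPM (303 to 381) against 269 CPM (242 to 299). At 150 nM the TGFBI values were 100 CPM in cluster 3 (82.2 to 121) and 37.5 CPM in cluster 4 (24.7 to 54.5). Cluster 2, the main one at 8 and 16 nM, held about the same TGFB2 level at each dose, 197, 206, 198 and 203 CPM from 8 to 75 nM. Cluster 3 held 207, 289 and 324 CPM from 16 to 75 nM. The persisters' main cluster 1 had 333 CPM of TGFB2, 67.5 CPM of TGFBI and 262 CPM of SMAD3 in 599 cells.

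Within single populations, thinned cells with a UMI of TGFB2 were set against those without. In PC9 the shares of cells with TGFBI, SMAD3, SMAD7, TGFB1, TGFBR1 or TGFBR2 had overlapping intervals in all 10 populations. At 1.2 µM, for example, TGFBI was found in 21.9% of the 638 cells with TGFB2 (18.8 to 25.4) and 21.6% of the 329 without (17.3 to 26.4). The TGFBI level was apart in persisters, at 95.7 CPM in cells with TGFB2 (81.1 to 112) and 60.8 CPM without (46.5 to 78.0). Split by TGFBI, TGFB2 levels were apart at 16 and 32 nM and in persisters. With and without TGFBI they were 280 and 223, 294 and 235, and 426 and 311 CPM. Cells with TGFBI held less TGFB2 in the untreated population and at 8 nM, 150 nM and 1.2 µM, with overlapping intervals. In A375, 5 populations had enough cells. TGFBI was apart only at 60 nM, with 36.8% of 57 cells with TGFB2 (24.4 to 50.7) against 21.6% of 1231 without (19.3 to 24.0). SMAD3 was apart only at 4 µM, with 41.3% of 150 cells (33.4 to 49.7) against 24.4% of 475 (20.6 to 28.5). While both TGFB2 and TGFBI were higher than untreated at 500 nM and above, cells with and without TGFB2 had overlapping intervals of the TGFBI share there, 28.9% and 24.3% at 500 nM, 33.1% and 35.6% at 1 µM, 38.3% and 37.1% at 2 µM and 35.3% and 32.8% at 4 µM. Split by TGFBI, the share of A375 cells with TGFBR2 was apart in opposite directions at 30 and 500 nM. At 30 nM it was 34.2% with TGFBI (27.5 to 41.4) against 22.7% without (18.7 to 27.0). At 500 nM it was 9.80% (5.59 to 15.7) against 23.0% (19.3 to 27.2). TGFBR2 levels at 30 nM overlapped, at 79.9 to 126 against 56.8 to 82.8 CPM. By level, cells with TGFBI were apart and higher at 60 nM in TGFB2 (23.5 against 9.99 CPM) and SMAD3 (117 against 86.7 CPM). At 30 nM they were apart and lower in SMAD3, at 64.8 against 104 CPM.

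A further 61 genes of the pathway were grouped by role in 6 lists. The lists were chosen with earlier results of these data known. Their counts beside the shares of all genes are therefore a description and no test of the pathway. In A375 at 4 µM, 10 of 49 measured were at least 2-fold higher and 11 lower, against 5.59% and 8.89% of all genes, and with trimmed mean scaling 11 were higher and 8 lower. At 30 nM 8 of 48 were higher and 6 lower (all genes 4.03% and 4.97%), and at 500 against 250 nM 10 of 48 and 5 (4.58% and 4.58%). In PC9, 10 of 44 were higher and 4 lower at 8 nM (all genes 3.15% and 1.77%), and 13 of 49 and 5 at 1.2 µM (6% and 3.86%). Persisters had 18 of 45 higher and 4 lower against untreated cells (all genes 10.6% and 9.63%), and 5 of 45 higher and 4 lower against 1.2 µM (4.03% and 4.26%).

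All 10 pathway genes counted as higher at 4 µM in A375 were from the list of target genes. TAGLN, an actin-binding protein, was at 4066 against 185 CPM, 21.97-fold higher (21.3 to 22.7). Smooth muscle actin (ACTA2) was 20.9-fold higher (19.6 to 22.4), periostin (POSTN) 14.9-fold (13.1 to 17.1) and fibronectin (FN1) 8.19-fold (7.54 to 8.91). Of 17 measured targets 10 were higher and 2 lower, with a median log2 ratio of 1.09, where 5.59% of all genes were higher and 8.89% lower. At 30 nM, TPM1, a tropomyosin, was at 613 against 204 CPM, higher by a ratio of 2.88 to 3.13, TAGLN 2.49-fold higher, and the basement membrane collagens COL4A1 and COL4A2 were 3.05-fold and 3.48-fold lower. Between 250 and 500 nM, TAGLN was 4.80-fold, TPM1 4.17-fold and ACTA2 3.26-fold higher. Of 16 measured targets 7 were higher and 2 lower in that step, where 4.58% of all genes were higher and 4.58% lower.

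Inhibitors and feedback genes past 2-fold in A375 at 4 µM were all lower. There 5 of 14 inhibitors and feedback genes were lower and 0 higher, where 8.89% of all genes were lower and 5.59% higher. The list's median log2 ratio was -0.23 and that of all genes -0.17. Follistatin (FST), which binds activins, was 6.14-fold lower (5.40 to 7.01), the pseudoreceptor BAMBI 3.33-fold lower (2.92 to 3.798), PMEPA1, which sequesters SMAD proteins, 2.49-fold lower (2.29 to 2.71), and the SMAD repressor SKI 2.18-fold lower. PMEPA1 was at 210 CPM in untreated cells, 205, 271, 450 and 139 CPM from 30 to 250 nM, and 89.2, 56.1, 75.3 and 84.4 CPM from 500 nM up. Its 4 lowest values were thus at the 4 doses with the highest TGFB2. The fifth lower feedback gene was the ubiquitin ligase NEDD4L, at 78.4 against 158 CPM, named after its values were seen. With trimmed mean scaling, SKI and NEDD4L were under 2-fold. At 30 nM, FST was 3.02-fold and NEDD4L 2.41-fold lower, and FSTL3 was 2.45-fold higher. From 250 to 500 nM, BAMBI was 2.65-fold and FST 2.35-fold lower, and FSTL3 2.47-fold and SMAD6 2.37-fold higher.

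Of the other ligands, latency proteins and activators in A375, 2 of 10 measured were lower at 4 µM and 0 higher. The shares of all genes there were 8.89% lower and 5.59% higher. INHBA, a subunit of activin, was at 131.5 CPM in untreated cells and 38.5, 210, 319, 71.8, 39.2, 38.3, 50.7 and 53.3 CPM from 30 nM to 4 µM. It was 3.42-fold lower than untreated at 30 nM and 2.47-fold lower at 4 µM, and highest at 125 nM. Integrin ITGB8, which releases latent TGF-beta, was 3.60-fold lower at 4 µM (3.21 to 4.05) and 2.27-fold lower at 500 than at 250 nM. THBS1, another activator, was 2.39-fold higher at 30 nM and 3.35-fold higher at 500 than at 250 nM. Of the other receptors, ACVR2B was 3.14-fold lower and TGFBR3 2.49-fold lower at 4 µM, both at 18.5 CPM or less, and ACVR2B was 2.40-fold lower at 30 nM. SMAD2, SMAD4 and ZFYVE9 stayed under 2-fold in all 7 comparisons.

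In PC9 more targets were higher than lower against untreated cells in each of the 3 comparisons. Over all genes, 3.15% were higher and 1.77% lower at 8 nM, 6% and 3.86% at 1.2 µM, and 10.6% and 9.63% in persisters. At 8 nM, 6 of 15 measured targets were higher and 1 lower, with TAGLN 7.41-fold (6.41 to 8.58), FN1 4.80-fold, NEDD9 2.98-fold and TPM1 2.91-fold higher. At 1.2 µM, 8 of 16 were higher and 1 lower, with TAGLN 10.5-fold (9.10 to 12.1), TPM1 5.67-fold, the cell cycle inhibitor CDKN2B 5.29-fold and LOX, a collagen crosslinker, 4.51-fold higher at 13.2 CPM. FN1 was highest in persisters at 308 CPM, and went from 156 and 184 CPM at 8 and 16 nM to 53.3 CPM at 1.2 µM, against 32.6 CPM untreated. In persisters against untreated cells 7 of 14 targets were higher and 1 lower, with CDKN2B 9.59-fold (7.31 to 12.8), FN1 9.45-fold (8.40 to 10.7) and NEDD9 7.33-fold higher. Against cells adapted to 1.2 µM, persisters had 5.78-fold more FN1 (5.17 to 6.48) and 2.06-fold more NEDD9, and 3.503-fold less TAGLN (3.11 to 3.96) and 2.83-fold less LOX.

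Feedback genes in PC9 were mixed. Over all genes, 3.15% were higher and 1.77% lower at 8 nM, 6% and 3.86% at 1.2 µM, and 10.6% and 9.63% in persisters. At 1.2 µM, BAMBI was 8.14-fold higher (5.63 to 12.1) at 26.2 CPM, SMAD6 4.28-fold and the repressor TGIF1 2.46-fold higher, while PMEPA1 was 2.57-fold lower (2.45 to 2.70) at 300 against 770 CPM. So 3 of 13 were higher and 1 lower, as at 8 nM, where SKIL, BAMBI and TGIF1 were 2.11-fold, 3.51-fold and 2.12-fold higher and PMEPA1 was 2.17-fold lower. Persisters had 4 of 13 higher and 0 lower against untreated cells: BAMBI 3.79-fold, SKIL 3.26-fold (3.05 to 3.49), SMAD6 2.67-fold and TGIF1 2.15-fold. BAMBI was 2.15-fold lower in persisters than at 1.2 µM.

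Several ligands, latency proteins and activators were higher in persisters, with 3 of 7 measured ligands and latency proteins and 3 of 5 activators at 2-fold or more over untreated cells and 1 lower in each list. Of all genes, 10.6% were higher and 9.63% lower in that comparison, the highest total share of the 7. INHBA was at 276 CPM in persisters, 3.17-fold above untreated cells (2.91 to 3.45) and 2.86-fold above 1.2 µM (2.61 to 3.14), while INHBB was at 42.8 CPM, 2.13-fold below 1.2 µM. The latency proteins FBN1 and LTBP1 were 3.67-fold and 2.11-fold above untreated cells, and LTBP1 was 2.51-fold above 1.2 µM. The integrins ITGB6, ITGB8 and ITGAV were 2.66-fold, 2.53-fold and 2.19-fold above untreated cells, and ITGB6 was 2.30-fold above 1.2 µM (2.05 to 2.59). LTBP2 was 2.71-fold lower in persisters and 4.26-fold lower at 1.2 µM than in untreated cells, and the protease FURIN 2.54-fold and 2.35-fold lower. At 1.2 µM, INHBB was 3.85-fold higher (3.32 to 4.46), and at 8 nM 2.78-fold, where FURIN was 2.66-fold lower. The coreceptor endoglin (ENG) was 2.23-fold lower at 8 nM, 2.77-fold lower at 1.2 µM and 3.27-fold lower in persisters, and TGFBR3 was 2.22-fold and 2.21-fold higher in the last 2.

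The 5 genes whose levels ran most like those of a member across the populations of a line were listed by Pearson's r on log2(CPM + 1), among 2414 genes in A375 and 1970 in PC9. These points share 1 untreated culture and 1 pool, so r is a description. For TGFB2 in A375, over 9 populations, they were HEBP1 (0.996), MYL9, a myosin light chain of smooth muscle (0.990), ANKS1B (0.989), the sodium channel SCN9A (0.989) and the hypoxia factor EPAS1 (0.986). TGFBI stood at 0.869 with TGFB2, which was place 240. For TGFB2 in PC9, over 10 populations, they were CLIC3 (0.997), the collagen COL4A3 (0.996), the protease KLK5 (0.995), TNNC1 (0.994) and RNF144B (0.994), and TGFBI stood at -0.807. For TGFBI the nearest genes were AGRN (0.973), MMP2 (0.969), RAB31 (0.968), NIPSNAP3A (0.964) and HCFC1R1 (0.960) in A375, and KRT5 (0.911), SH3KBP1 (0.906), G0S2 (0.906), PMEPA1 (0.904) and S100A2 (0.902) in PC9. For TGFBR2 in PC9 they were PPP2R5C (0.978), MARK3 (0.977), NRCAM (0.975), WDR20 (0.972) and KRT13 (0.972). For SMAD3 they were PPARG (0.907), TNNT1 (0.904), MGLL (0.903), VAT1 (0.874) and C1GALT1 (0.854) in A375, and C12orf49 (0.966), ENC1 (0.957), SAMD4A (0.956), SAT1 (0.951) and PCLO (0.941) in PC9. For TGFBR1 in A375 the nearest gene was PTGFRN (0.888), followed by RASSF3 (0.810), STK38L (0.770), EBF1 (0.744) and PDE7B (0.716).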

How the data were processed

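Single-cell 3′ libraries (10x, with CellPlex tags) of the 2 lines were used, A375 in 2 runs. Per the submitters' processing notes they were processed with Cell Ranger 7.0.0 on GRCh38. The authors deposited UMI counts per gene and cell, with the population in each cell's name, and tables of cells with cluster numbers. These tables of cells carry the label g1 in both lines. The mitochondrial percent per cell in those tables was deposited by the authors too, and was recomputed here from the counts. Doublet treatment and strand use are not given in the sources used here. The suffix T05 of A375 cell names was read as 500 nM, which was inferred. Levels are a population's summed counts per 1000000 of its total (CPM), with exact Poisson intervals. Ratios and shares have exact binomial intervals (95%), for counting error only. At 3 counts, the limit for a count of 0 is 0.137 to 1.02 CPM in A375 and 0.284 to 0.611 CPM in PC9. Genes with 10 CPM and 20 UMIs in the higher population were compared as log2(CPM + 1). The calculation was tested on simulated Poisson sums per population. That test leaves out differences between cells, so it cannot show whether the intervals are wide enough for them. Named are all members, up to 4 genes per pathway list and comparison with the largest difference, and the 5 genes most like a member with at least 25 CPM and a 2-fold range. Members and lists were chosen with earlier results of these data known. Alternatives changed the pseudocount, the minimum, the scaling (edgeR 4.0.16, R 4.3.3), the cells and the depth. Python 3.11.15, numpy 2.4.6, scipy 1.17.1 and pandas 2.3.3 were used. Coordinates are from GENCODE v29 (GRCh38). A gene of the target list is counted in its list but not reported here.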

Additional observations from a re-analysis of the deposited data

Results flagged for a closer look

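TGFBR2 differed from untreated cells in opposite directions in the 2 lines. Its log2 ratio to untreated cells lay between 0.43 and 0.83 over the 8 A375 doses and between -1.27 and -0.19 over the 8 PC9 doses. The difference between the lines was not tested, and the doses of a line share 1 untreated culture. The ranges were 0.46 to 0.83 and -1.34 to -0.26 with trimmed mean scaling, 0.50 to 0.87 and -1.29 to -0.21 without mitochondrial and ribosomal protein genes in the total, and 0.55 to 1.16 and -1.18 to -0.13 as a mean over cells. Among cells with an authors' cluster they were 0.23 to 0.88 and -1.05 to 0.12, where 1 PC9 dose, 16 nM, lay above untreated cells.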

How the results depend on the processing

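No member past 2-fold changed direction under any of 10 alternatives, each changing 1 choice. TGFB2 log2 ratios ranged over the alternatives from 2.74 to 3.76 for A375 at 4 µM and from 2.35 to 2.69 for PC9 persisters against untreated cells. In A375 at 4 µM the all-gene median moved by 0.10 with trimmed mean scaling and 0.11 without mitochondrial and ribosomal protein genes. SMAD7 in PC9 at 1.2 µM passed 2-fold only when thinned (1.13 against 0.76). Of the pathway genes, 14 were past 2-fold in PC9 at 8 nM, and 9 with a pseudocount of 5 CPM, 8 with a minimum of 50 CPM and 9 in the cells of the authors' table. The minimum of 50 CPM left 8 of 18 at 1.2 µM and 13 of 22 in persisters against untreated cells. Over all genes it tests fewer genes and left 407 of 889 and 682 of 1440 (A375 at 30 nM and 4 µM), 411 of 892 (500 against 250 nM), 170 of 459 and 407 of 935 (PC9 at 8 nM and 1.2 µM), and 891 of 1956 and 325 of 792 (persisters against untreated and 1.2 µM). With no minimum, 1402 were past 2-fold for 500 against 250 nM, 805 at 8 nM, 1533 at 1.2 µM and 1230 for persisters against 1.2 µM. In the authors' cells 707 were past it at 8 nM. No paired analysis was possible because each population was 1 culture and the numbered A375 samples are 2 runs of 1 pool that cell names do not tell apart.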
